A study of Mus musculus with 12 samples.

Results

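C-type lectin receptors are membrane proteins that bind sugars and lipids on microbes and on damaged cells, and 10 of their genes were followed in mouse macrophage-rich peritoneal cells through a course of LPS, a bacterial cell wall component. The genes were Clec4e, Clec4d, Clec4n, Clec5a, Clec7a, Clec12a, Clec4a1, Clec4a2, Clec4a3 and Clec10a, chosen by symbol alone, and all 10 were among the 12850 genes of the expression table. The RNA came from thioglycollate-elicited PECs, peritoneal exudate cells collected 3.5 days after an injection of 2 ml of 4% thioglycollate. The donors were WT mice and mice homozygous for a knock-in, Zc3h12a S513A/S513A (S513A), on a C57BL/6 background. Zc3h12a encodes Regnase-1, an endoribonuclease that degrades inflammatory mRNAs, and the knock-in, made with CRISPR/Cas9, replaces a serine of the protein by alanine in every cell type. The cells of each genotype received no LPS (0 hr) or LPS (100 ng/ml) for 4 or 8 hr, with 2 libraries in each of the 6 groups, so that all groups shared the thioglycollate injection. The sources used here do not say whether the 2 libraries of a group came from separate mice, so p-values measure the spread between these libraries. The WT mice were bought from a breeder, and littermate controls are not mentioned.

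Signals from these receptors follow a common plan. Activating members lack a signalling tail of their own and pair with the adaptor FcRγ or DAP12, while Clec7a carries a motif in its own tail; both routes recruit the kinase Syk and, through the CARD9, BCL10 and MALT1 complex, reach NF-κB and cytokine genes. Inhibitory members carry a motif that recruits phosphatases such as SHP-1. In macrophages the family is best known for the recognition of fungi and mycobacteria.

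Libraries held 9525979 to 12439960 reads on the listed genes, with a median of 11137241. The values are log2 CPM, the log2 of read counts scaled to the library size (CPM) after 0.5 read was added, and 3 reads corresponded to between -2.04 and -1.30 on this scale. Every member stood above that floor in all 12 libraries, from the 27 to 268 reads of Clec10a to the 8732 to 60504 reads of Clec4e, and all 10 passed the filter of at least 1 CPM in at least 2 libraries that left 11885 genes to test. Macrophage markers were abundant, with all 8 genes of a list led by Lyz2 and Adgre1 present and a summed level of 16754 to 27848 CPM. Of 10 neutrophil markers 7 were not in the table, Ly6g, S100a9, Ngp and Mpo among them. The other 3 were Csf3r (67.9 to 128 CPM), S100a8 (20.2 to 106 CPM) and Camp (0.0348 to 3.48 CPM). Of 6 T or NK cell markers 5 were not in the table, Cd3e among them. The filter behind the table is not known, so a missing row does not show that a gene was silent. A point change in a codon leaves the level of Zc3h12a free to vary, so gene levels gave no check of the genotype labels.

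The members sat in a few places in the genome. In the GRCm38 annotation, 9 of the 10 genes lay on chromosome 6 and Clec10a lay on chromosome 11 at chr11:70156197-70170834. The Clec4 genes formed a row on chromosome 6, from Clec4a1 (chr6:122921848-122934619) through Clec4a3 (chr6:122952515-122969875), Clec4a2 (chr6:123106428-123143999), Clec4n (chr6:123229843-123247021) and Clec4d (chr6:123262111-123275265) to Clec4e (chr6:123281789-123289870). Clec12a (chr6:129342691-129365303) and Clec7a (chr6:129461591-129472779) were neighbours in another cluster, and Clec5a (chr6:40574894-40585821) stood apart. No exon of a member overlapped an exon of another annotated gene. Clec4a2 shared 6.15% of its 50-base stretches with Clec4a4 and Clec4b1, and Clec10a shared 8.49% with its close relative Mgl2, so reads from those stretches could have been counted to either gene or dropped. The GENCODE annotation types Clec7a as a polymorphic pseudogene and the other 9 as protein coding.

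Promoters are shown for 4 members that moved in different ways after LPS: Clec4e, which rose most of the 10, Clec5a, which rose and then declined, Clec12a, which rose less, and Clec7a, which fell. Each runs 5′ to 3′ on the gene's strand from 250 bases before the RefSeq start site to 50 bases after it (GRCm38.p6), and capitals mark matches to 5 motifs of factors active in LPS-treated macrophages.
Clec4e promoter, chr6:123289822-123290121, minus strand: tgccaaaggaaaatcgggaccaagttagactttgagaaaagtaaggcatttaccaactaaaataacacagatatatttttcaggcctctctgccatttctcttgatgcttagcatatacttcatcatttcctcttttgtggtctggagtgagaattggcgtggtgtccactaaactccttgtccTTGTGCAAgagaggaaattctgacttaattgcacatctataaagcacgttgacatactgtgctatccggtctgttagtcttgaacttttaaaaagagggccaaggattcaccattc
Clec5a promoter, chr6:40585756-40586055, minus strand: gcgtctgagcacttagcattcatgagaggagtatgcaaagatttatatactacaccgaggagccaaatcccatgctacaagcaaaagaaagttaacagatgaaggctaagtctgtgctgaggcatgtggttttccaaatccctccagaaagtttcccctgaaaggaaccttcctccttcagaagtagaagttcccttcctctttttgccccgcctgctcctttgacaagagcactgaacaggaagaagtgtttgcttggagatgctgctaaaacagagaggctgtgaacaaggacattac
Clec12a promoter, chr6:129349994-129350293, plus strand: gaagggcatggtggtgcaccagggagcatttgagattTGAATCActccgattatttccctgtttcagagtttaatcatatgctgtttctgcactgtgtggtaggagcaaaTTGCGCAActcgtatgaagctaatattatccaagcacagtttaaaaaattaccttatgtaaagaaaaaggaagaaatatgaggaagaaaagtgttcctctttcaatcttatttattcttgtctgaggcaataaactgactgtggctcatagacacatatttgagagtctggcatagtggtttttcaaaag
Clec7a promoter, chr6:129472730-129473029, minus strand: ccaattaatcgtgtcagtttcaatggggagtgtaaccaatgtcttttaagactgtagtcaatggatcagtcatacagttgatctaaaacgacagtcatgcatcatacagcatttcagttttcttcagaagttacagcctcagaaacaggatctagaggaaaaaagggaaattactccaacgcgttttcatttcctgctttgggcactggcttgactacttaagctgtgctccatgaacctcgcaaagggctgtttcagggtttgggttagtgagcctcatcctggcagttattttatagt
The motifs, read on both strands, were GGG and TTCC separated by 3 bases for NF-κB, TTNNGCAA for C/EBP, TGANTCA for AP-1, AGGAAGT for ETS factors such as PU.1, and GAAA repeated after 2 bases for the interferon-stimulated response element. Among the 32851 promoter windows of the RefSeq table, 5.56% held the NF-κB motif, 10.8% the C/EBP motif, 7.81% the AP-1 motif, 9.35% the ETS motif and 3.44% the interferon motif. The Clec4e window held a C/EBP match, TTGTGCAA, that began 66 bases before the start site, and the Clec12a window held a C/EBP match, TTGCGCAA, 140 bases before it and an AP-1 match, TGAATCA, 213 bases before it. No match overlapped another. The Clec5a and Clec7a windows held none of these letters, and neither did those of Clec4a1 and Clec4a3. The Clec4a2 window held an AP-1 match, TGACTCA, downstream of the start, and the Clec4d window an interferon-type match on the opposite strand at the start site. Windows were found for 8 of the 10 members, with Clec4n and Clec10a unmatched.

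Before LPS, the family's levels spanned a wide range. Scaled by exonic length, which allows genes to be compared, the mean over the 4 libraries at 0 hr was 664 CPM per kb for Clec4d, 416 for Clec7a, 214 for Clec4n, 178 for Clec4e and 72.5 for Clec4a3. Clec4a1 and Clec4a2 followed at 37.0 and 35.5 CPM per kb, Clec12a at 18.9 and Clec5a at 16.5, and Clec10a was lowest at 5.94. The libraries of Clec4n and Clec4e overlapped in this order, as did those of Clec4a1 and Clec4a2 and those of Clec12a and Clec5a, whereas the other neighbours did not. The 4 highest, all receptors for mycobacterial or fungal ligands, thus lay above the libraries of the remaining 6.

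LPS changed that order. At 8 hr Clec4d, at 1124 CPM per kb, and Clec4e, at 1069, overlapped at the top, and together they held 72.2% of the length-scaled signal of the 10 genes, against 50.7% at 0 hr. Clec7a held 25.1% at 0 hr and 7.78% at 8 hr. Clec5a moved from the ninth place at 0 hr to the sixth at 4 hr, where it overlapped Clec4a1 and Clec4a3. Clec10a was last at every time, with 0.0379% at 8 hr.

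**Figure D1:**
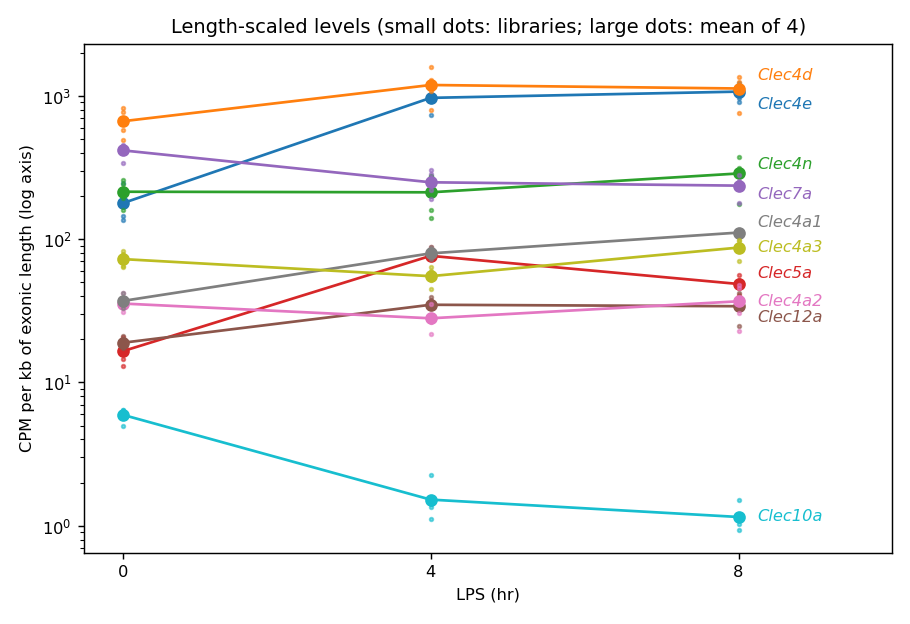
Levels of the 10 receptor genes in CPM per kb of exonic length (log axis) against hours of LPS; small dots are the 4 libraries of a time, both genotypes included, and large dots their mean. Clec4e climbs from 178 to 967 CPM per kb by 4 hr and joins Clec4d at the top, while Clec10a drops from 5.94 to 1.15 by 8 hr.

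The effect of LPS was asked first over both genotypes. At 4 hr, 5 of the 10 members were called higher than at 0 hr (29.1% of all genes tested were) and 3 were called lower (26.7% of all genes), at an adjusted p of 0.05 or less in limma with Benjamini-Hochberg adjustment. Clec4e, Clec5a, Clec4a1, Clec12a and Clec4d rose, and Clec10a, Clec7a and Clec4a3 fell. At 8 hr the same 5 members were higher (24.5% of all genes) and Clec10a and Clec7a were lower (21.6%). The median log2 fold change of the members was 0.39 at 4 hr and 0.58 at 8 hr, beside medians of 0.0171 and -0.000702 over all genes tested. In bulk RNA, fewer cells of a type and less RNA per cell cannot be told apart.

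**Figure D2:**
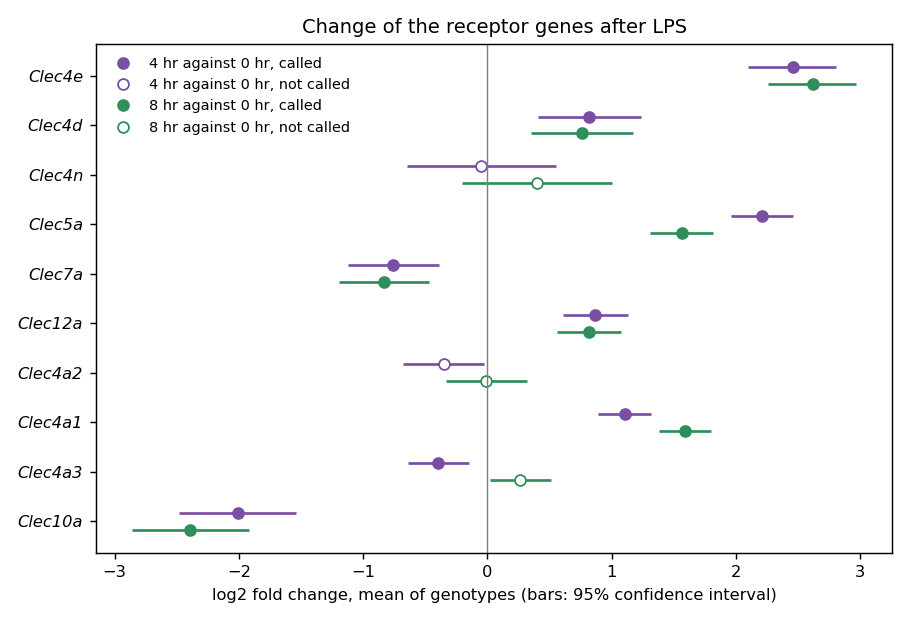
Log2 fold change of each receptor gene after 4 and 8 hr of LPS against 0 hr, mean of both genotypes, with 95% confidence intervals from limma; filled points passed an adjusted p of 0.05. Clec4e, Clec5a and Clec4a1 lie farthest to the right and Clec10a farthest to the left, while Clec4n and Clec4a2 pass at neither time.

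Among the activating receptors, Clec4e (Mincle), which couples to FcRγ and binds the mycobacterial cord factor, rose most of the 10 genes. Its log2 CPM in the WT libraries was 9.50 and 9.39 without LPS, 12.22 and 11.83 after 4 hr, and 12.23 and 12.49 after 8 hr. In S513A it read 9.83 and 10.27 without LPS, 12.16 and 12.60 after 4 hr, and 12.14 and 12.58 after 8 hr. All 8 libraries with LPS lay above all 4 without it. The log2 fold change was 2.46 (SE 0.16, adjusted p = 2.81e-07, limma) at 4 hr, a 5.49-fold rise that ranked 395 of 11885 genes from the top, and 2.62 (SE 0.16, adjusted p = 2.21e-07, limma) at 8 hr. Between 4 and 8 hr the difference was 0.16 with a 95% confidence interval of -0.19 to 0.51, which missed the threshold (adjusted p = 0.508, limma).

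Clec4d (MCL), the gene next to Clec4e and the partner of its protein on the cell surface, rose less. Its log2 CPM in WT was 9.63 and 9.85 without LPS, 11.01 and 10.32 after 4 hr, and 10.95 and 11.07 after 8 hr. The S513A libraries gave 10.26 and 10.36 without LPS, 10.75 and 11.31 after 4 hr, and 10.25 and 10.85 after 8 hr. The WT groups were cleanly separated from 0 hr, whereas the S513A libraries at 0 and 8 hr overlapped. The log2 fold change was 0.82 (SE 0.19, adjusted p = 0.00307, limma) at 4 hr and 0.76 (SE 0.19, adjusted p = 0.00649, limma) at 8 hr. Under quantile normalization the 4 hr change was 0.39 and did not pass (adjusted p = 0.0737, limma). The ratio of Clec4e to Clec4d, which needs no length scaling to be followed over time, was 0.727 to 0.939 in CPM in the 4 libraries at 0 hr, 2.30 to 2.86 at 4 hr and 2.42 to 3.72 at 8 hr, so the libraries with LPS all lay above those without.

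Clec5a (MDL-1), which couples to DAP12, peaked at 4 hr. In WT its log2 CPM was 5.81 and 5.65 without LPS, 8.28 and 7.77 after 4 hr, and 7.75 and 7.64 after 8 hr, and in S513A it was 6.10 and 6.31, then 8.26 and 8.41, then 7.29 and 7.45. The 3 times did not overlap. The rise at 4 hr was 2.21 on the log2 scale (SE 0.11, adjusted p = 4.53e-08, limma), or 4.63-fold, and at 8 hr it was 1.57 (SE 0.11, adjusted p = 8.71e-07, limma). From 4 to 8 hr Clec5a fell by 0.64 (SE 0.11, adjusted p = 0.00214, limma), the only member called lower in that interval, in which 12.8% of all genes were called lower and 12.8% higher.

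Clec4n (Dectin-2), a receptor for fungal mannans that also couples to FcRγ, was the activating member with no called change. Its log2 CPM was 8.44 and 7.82 in WT and 8.10 and 8.51 in S513A at 0 hr, and 8.60 and 7.65 in WT and 7.82 and 8.62 in S513A at 4 hr. At 8 hr it was 9.04 and 8.66 in WT and 7.96 and 8.80 in S513A. Replicates differed by up to 0.95, more than for any other member except Clec10a, and the 3 times overlapped. The difference from 0 hr was -0.05 (95% confidence interval -0.65 to 0.55, adjusted p = 0.896, limma) at 4 hr and 0.40 (-0.20 to 1.00, adjusted p = 0.263, limma) at 8 hr, so a change of up to 1.00 on the log2 scale at 8 hr lay within its interval. With the replicate number of each genotype as a block, the 8 hr difference passed (adjusted p = 0.0163, limma).

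Clec7a (Dectin-1), the β-glucan receptor with its own activating motif, moved the other way. Log2 CPM in WT was 10.24 and 9.80 without LPS, 9.64 and 8.96 after 4 hr, and 9.53 and 9.38 after 8 hr; in S513A it was 10.12 and 10.20, then 9.18 and 9.55, then 8.88 and 9.24. Every library with LPS lay below every library without it. Clec7a fell by 0.76 (SE 0.16, adjusted p = 0.00241, limma) at 4 hr and by 0.83 (SE 0.16, adjusted p = 0.00171, limma) at 8 hr, a 1.78-fold drop. Set beside Clec4n, the other fungal receptor, the ratio of Clec4n to Clec7a in CPM was 0.246 to 0.310 at 0 hr, 0.389 to 0.522 at 4 hr and 0.531 to 0.737 at 8 hr, with no overlap between times.

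**Figure D3:**
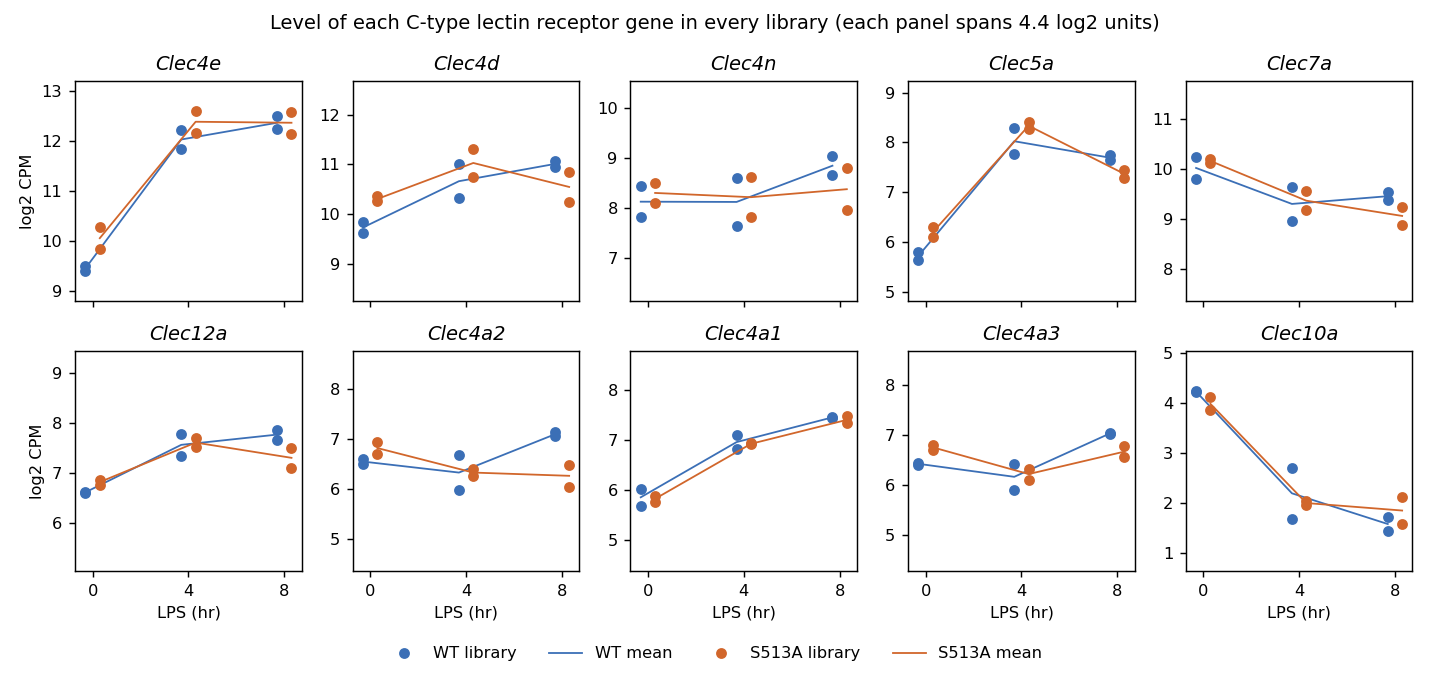
Log2 CPM of each receptor gene in all 12 libraries against hours of LPS, WT in blue and S513A in orange; points are libraries, lines join group means and every panel spans 4.4 log2 units. Clec4e, Clec5a and Clec4a1 rise in both genotypes, Clec7a and Clec10a fall, and the WT and S513A lines of Clec4a2 part at 8 hr.

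Of the receptors that carry an inhibitory motif, Clec12a (MICL), which recognizes uric acid crystals, rose. Its log2 CPM was 6.61 and 6.60 in WT and 6.76 and 6.86 in S513A at 0 hr, against 7.78 and 7.33 in WT and 7.51 and 7.69 in S513A at 4 hr. At 8 hr it was 7.66 and 7.86 in WT and 7.10 and 7.49 in S513A. No library with LPS came down to those at 0 hr, which spanned 0.26. The rise was 0.87 (SE 0.12, adjusted p = 9.75e-05, limma) at 4 hr and 0.82 (SE 0.12, adjusted p = 0.000194, limma) at 8 hr.

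Clec4a2 (DCIR), the other inhibitory member, had no called change over both genotypes, though some alternatives called a fall at 4 hr. In WT its log2 CPM was 6.50 and 6.61 without LPS, 6.68 and 5.99 after 4 hr, and 7.14 and 7.06 after 8 hr, and in S513A it was 6.94 and 6.71, then 6.26 and 6.41, then 6.05 and 6.49. The genotypes moved apart at 8 hr, with both WT libraries above and both S513A libraries below all those of their genotype at 0 hr. The difference over both genotypes was -0.35 (SE 0.15, adjusted p = 0.0633, limma) at 4 hr and -0.01 (SE 0.15, adjusted p = 0.981, limma) at 8 hr. Without the WT 4 hr replicate 1 library the 4 hr difference was -0.53 and passed (adjusted p = 0.00276, limma); without either S513A 8 hr library it stayed at -0.35 and also passed (adjusted p = 0.0456, limma). It passed too under quantile normalization, at -0.60 (adjusted p = 0.00391, limma).

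Clec4a1 and Clec4a3 are relatives of Clec4a2 that lie side by side on chromosome 6. Clec4a1 rose in steps, from 6.03 and 5.69 in WT and 5.77 and 5.89 in S513A without LPS, through 7.11 and 6.82 in WT and 6.92 and 6.94 in S513A at 4 hr, to 7.45 and 7.47 in WT and 7.48 and 7.34 in S513A at 8 hr. No libraries of different times overlapped, and the genotypes stayed together at each. The changes were 1.11 (SE 0.10, adjusted p = 2.69e-06, limma) at 4 hr and 1.59 (SE 0.10, adjusted p = 1.9e-07, limma) at 8 hr, with a further rise of 0.49 (SE 0.10, adjusted p = 0.00394, limma) between them.

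Clec4a3 instead dipped and came back. Its log2 CPM in WT was 6.43 and 6.40 without LPS, 6.41 and 5.90 after 4 hr, and 7.04 and 7.01 after 8 hr; in S513A it was 6.79 and 6.70, then 6.10 and 6.32, then 6.55 and 6.77. All libraries at 8 hr lay above all at 4 hr, while 0 hr overlapped with both. Clec4a3 fell by 0.40 at 4 hr (SE 0.11, adjusted p = 0.0105, limma) and rose by 0.66 from 4 to 8 hr (SE 0.11, adjusted p = 0.00163, limma), and with Clec4a1 it was 1 of the 2 members called higher in that interval. At 8 hr against 0 hr the difference of 0.26 did not pass (adjusted p = 0.0761, limma). It passed without the WT 4 hr replicate 1 library (adjusted p = 0.0146, limma) and without the WT 4 hr replicate 2 library (adjusted p = 0.0145, limma), neither of which belongs to that comparison. In the order of the chromosome, the 4 hr changes of the 6 Clec4 neighbours were thus 1.11, -0.40, -0.35, -0.05, 0.82 and 2.46 from Clec4a1 to Clec4e, with called rises at both ends of the row.

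Clec10a, the macrophage galactose-type lectin, fell most of the 10 genes. Log2 CPM in WT was 4.23 and 4.22 without LPS, 1.68 and 2.70 after 4 hr, and 1.71 and 1.44 after 8 hr, and in S513A it was 4.11 and 3.85, then 2.03 and 1.96, then 2.12 and 1.57. All LPS libraries lay well below those at 0 hr, and the WT 4 hr libraries were farthest apart. The fall was -2.01 (SE 0.21, adjusted p = 1.38e-05, limma) at 4 hr and -2.39 (SE 0.21, adjusted p = 4.48e-06, limma) at 8 hr, a 5.23-fold drop that ranked 137 of 11885 genes from the bottom. From 4 to 8 hr the difference of -0.38 missed the threshold (adjusted p = 0.227, limma), and without the WT 4 hr replicate 1 library it was -0.63 and passed (adjusted p = 0.0176, limma). Of 6 dendritic cell markers 3 were in the table. Their summed CPM was 1.89 to 2.50 at 0 hr and 7.98 to 10.3 at 8 hr, opposite in direction to Clec10a. At its highest Ccr7 reached 7.49 CPM, Flt3 1.76 and Zbtb46 1.57. The eosinophil sum, from 2 of 4 listed markers, fell as Clec10a did. It was 15.3 to 18.5 CPM at 0 hr and 3.62 to 4.58 at 8 hr. Most of it was Siglecf (2.98 to 18.3 CPM over all libraries), with Ccr3 at 0.0581 to 0.781 CPM. The part of these cells in the result was not tested.

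The signalling partners of the receptors were followed as a list of 21 genes, all of which were tested. At 4 hr 12 rose and 3 fell, with a median log2 change of 0.43, where 29.1% of all genes were called higher and 26.7% lower. At 8 hr 12 rose and 5 fell, with a median of 0.49, where 24.5% of all genes were called higher and 21.6% lower. The largest changes at both times were those of Src, a kinase, at 3.69 and 3.43, and of Malt1, the paracaspase of the CARD9 complex, at 2.87 and 2.67. Named for their roles and with their values already seen, the adaptor Fcer1g rose by 0.76 at 4 hr and 0.85 at 8 hr, the kinase Syk by 1.66 and 1.42, and the adaptor Tyrobp was at -0.28 (adjusted p = 0.264, limma) at 4 hr and fell by 0.73 at 8 hr. Card9 fell by 0.30 at 4 hr and by 0.26 at 8 hr. From 4 to 8 hr 3 of the list rose and 6 fell, where 12.8% of all genes were called in each direction. The largest changes in that interval were those of Inpp5d, an inositol phosphatase, at 1.20, Vav1 at 0.71 and Fyn at -0.69. Inpp5d had fallen by 1.44 at 4 hr (adjusted p = 4e-06, limma), and at 8 hr it was at -0.24 against 0 hr (adjusted p = 0.165, limma).

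Other C-type lectins moved in both directions. Of 25 listed, 16 were in the table and 12 were tested, and 5 rose and 4 fell at 4 hr, 6 rose and 5 fell at 8 hr, and 1 rose and 5 fell from 4 to 8 hr. Over all genes the shares called higher and lower were 29.1% and 26.7% at 4 hr, 24.5% and 21.6% at 8 hr, and 12.8% each from 4 to 8 hr. The medians of the list were 0.02, 0.06 and -0.41. The largest changes at 4 hr were those of Cd69, an activation marker, at 6.61, Olr1, a receptor for oxidized LDL, at 2.51, and Clec9a at -2.29. At 8 hr they were Cd69 at 4.63, Olr1 at 2.03 and Pla2r1 at 2.01. Cd69 at -1.97, Pla2r1 at 1.95 and Mrc1, the mannose receptor, at -1.20 led from 4 to 8 hr.

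Markers of other cells were read beside these values. The 4 monocyte markers summed to 23.6 to 38.1 CPM at 0 hr, 35.2 to 86.7 at 4 hr and 58.8 to 103 at 8 hr, a move in which Ly6c2 rose and Ccr2 fell. The 3 neutrophil genes in the table summed to 103 to 122 CPM at 0 hr and 162 to 215 at 8 hr, mostly from Csf3r and S100a8. Sums were below 20 CPM in every library for the B cell, T or NK cell, eosinophil and mast cell lists. The eosinophil sum fell, from 15.3 to 18.5 CPM at 0 hr to 8.02 to 10.0 at 4 hr and 3.62 to 4.58 at 8 hr. It came from 2 of 4 listed genes, mostly from Siglecf, and the T or NK cell sum from 1 of 6. The resident macrophage list went from 55.7 to 97.3 CPM at 0 hr to 128 to 152 at 8 hr. In that list of 5, Timd4 (1.45) and Prg4 (0.93) were called higher at 8 hr, Gata6 (-1.57) and Vsig4 (-0.90) were called lower and the median log2 change was -0.04. The part of these cells in the changes of the receptors was not tested. At 4 hr, 2 macrophage markers of 8 rose and 2 fell, where 29.1% of all genes were called higher and 26.7% lower. At 8 hr 4 rose and 2 fell, where 24.5% of all genes were called higher and 21.6% lower.

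LPS responses were next taken within each genotype. At 4 hr, 7 members passed in WT (41.3% of all genes did) and 8 in S513A (43.2% of all genes), with Clec4a3 the added one in S513A, where it fell by 0.54 (adjusted p = 0.0184, limma), beside -0.26 (adjusted p = 0.216, limma) in WT. At 8 hr, 7 passed in WT (34.3% of all genes) and 6 in S513A (39.9% of all genes). Clec4d and Clec4a3 passed in WT, at 1.27 and 0.61, and not in S513A, at 0.24 and -0.08, while Clec7a passed in S513A, at -1.10, and not in WT, at -0.56 (adjusted p = 0.0853, limma). In WT Clec7a passed under quantile normalization (-0.93, adjusted p = 0.0069, limma) and, still at -0.56, when only the libraries compared were fitted (adjusted p = 0.00821, limma), with the replicate block within genotype (adjusted p = 0.0168, limma) and without either WT 4 hr library (adjusted p = 0.0309 and 0.0312, limma). Clec4a2 narrowly missed in both, at 0.55 in WT (adjusted p = 0.0661, limma) and -0.56 in S513A (adjusted p = 0.0551, limma), and passed in both without either of the WT 4 hr libraries (adjusted p = 0.0128 and 0.0104, limma). Without S513A 0 hr replicate 1, or without S513A 0 hr replicate 2, 5 members passed at 4 hr in S513A instead of 8, since Clec4d, Clec7a and Clec4a3 no longer did. Clec4a3 at 8 hr in WT did not pass when any 1 of the 4 libraries compared was left out (adjusted p = 0.056 to 0.0663, limma). Clec4d and Clec7a at 4 hr, in both genotypes, and Clec12a at 8 hr in S513A also lost their calls without some single libraries. In WT, Clec7a at 4 hr did not pass with a prior without a trend (adjusted p = 0.0539, limma). Nor did it when only the libraries compared were fitted (adjusted p = 0.0757, limma). Under quantile normalization Clec4d at 4 hr passed in neither WT (adjusted p = 0.112, limma) nor S513A (adjusted p = 0.418, limma). By contrast, Clec4e, Clec5a, Clec4a1 and Clec10a passed in both genotypes at both times whichever library was left out.

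The question whether the knock-in altered the receptors was put at each time. No member passed at 0 hr (0.0337% of all genes did), 4 hr (0.0168%), 8 hr (0.0337%) or over the 3 times together (0.0673%) by limma, and none did with voom weights. At an unadjusted p under 0.05 the members numbered 2 at 0 hr (7.98% of all genes), 0 at 4 hr (7.01%), 3 at 8 hr (12.5%) and 1 over all times (6.71%). The intervals still allowed sizeable differences, such as 0.10 to 1.10 on the log2 scale for Clec4e at 0 hr.

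At 0 hr the pair of S513A libraries exceeded the WT pair for 6 members and fell under it for Clec10a, while 3 overlapped. Of all genes 57.5% had no overlap at this time, so the share without overlap, in either direction, was near the background. Those genes were 3616 of 11885 above WT and 3220 below. Clec4e differed by 0.60 (adjusted p = 0.586, limma), Clec4d by 0.57 (adjusted p = 0.586, limma), Clec5a by 0.47 (adjusted p = 0.586, limma) and Clec4a3 by 0.33 (adjusted p = 0.586, limma). When only the 4 libraries at 0 hr were fitted, with 2 residual degrees of freedom, these 4 were among 693 of 11885 genes that passed, with adjusted p from 0.0431 to 0.0457 in limma. At 4 hr all 10 members overlapped between genotypes, where 28.2% of all genes did not.

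At 8 hr, 6 members lay below WT in both S513A libraries, 4 overlapped and none lay above. Of all genes 53.6% had no overlap, a share near that of the members only when direction is left aside. Those genes were 3312 of 11885 above WT and 3061 below, whereas the 6 members were all below. Clec4a2 differed by -0.83 (95% confidence interval -1.29 to -0.37, adjusted p = 0.395, limma), Clec12a by -0.47 (adjusted p = 0.395, limma), Clec4a3 by -0.36 (adjusted p = 0.395, limma) and Clec5a by -0.32 (adjusted p = 0.411, limma). Clec4d was at -0.47 (adjusted p = 0.429, limma), and Clec4e was at 0.00 with an interval of -0.50 to 0.50. With each library left out in turn, the difference ranged from -0.77 to -0.16 for Clec4d, from -0.67 to -0.28 for Clec12a and from -0.22 to 0.22 for Clec4e. The summed macrophage markers at 8 hr were also lower in S513A, at 16754 to 22443 CPM beside 23743 to 24790 in WT. Lyz2, with a median of 16120 CPM over all libraries, was the largest part of that sum. The median log2 difference of the 8 markers was -0.15, and none was called. For the 5 resident macrophage markers the median difference was -0.47 at 8 hr, beside -0.40 at 0 hr and -0.46 at 4 hr. Their sums at 8 hr overlapped, at 128 to 136 CPM in S513A and 128 to 152 in WT. The part of these cells in the result was not tested.

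The difference between genotypes in the LPS change itself was then tested. No member and no other gene passed at 4 hr (0% of genes called) or at 8 hr (0% of genes called) in limma, and no member did with voom weights. At 8 hr 5 members had an unadjusted p under 0.05, where 20.2% of all genes did, and at 4 hr none had, where 1.21% did. At 8 hr the interaction was negative for 9 of the 10 members, or for 8 under median-ratio scaling and quantile normalization, where Clec4a1 turned to 0.01 and 0.03, with a median of -0.66 beside 0.0105 over all genes tested. It was -1.10 for Clec4a2 (SE 0.30, adjusted p = 0.193, limma), -1.03 for Clec4d (SE 0.37, adjusted p = 0.202, limma), -0.79 for Clec5a (SE 0.23, adjusted p = 0.193, limma), -0.70 for Clec4a3 (SE 0.22, adjusted p = 0.193, limma) and -0.67 for Clec12a (SE 0.24, adjusted p = 0.199, limma). It was -0.64 for Clec4n (adjusted p = 0.486, limma), -0.60 for Clec4e (adjusted p = 0.291, limma) and -0.54 for Clec7a (adjusted p = 0.337, limma). With each library left out in turn it ranged from -1.06 to -0.22 for Clec4n, from -0.82 to -0.38 for Clec4e and from -0.76 to -0.32 for Clec7a. Clec4a1 stood at -0.02, with an interval of -0.44 to 0.40 and a range of -0.19 to 0.15, and Clec10a at 0.51, with a range of 0.24 to 0.79. Since the 0 hr and 8 hr differences between genotypes both enter it, members above WT at 0 hr and below at 8 hr have the most negative interactions. The members were read in the same 12 libraries, so their signs are not independent of one another.

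**Figure D4:**
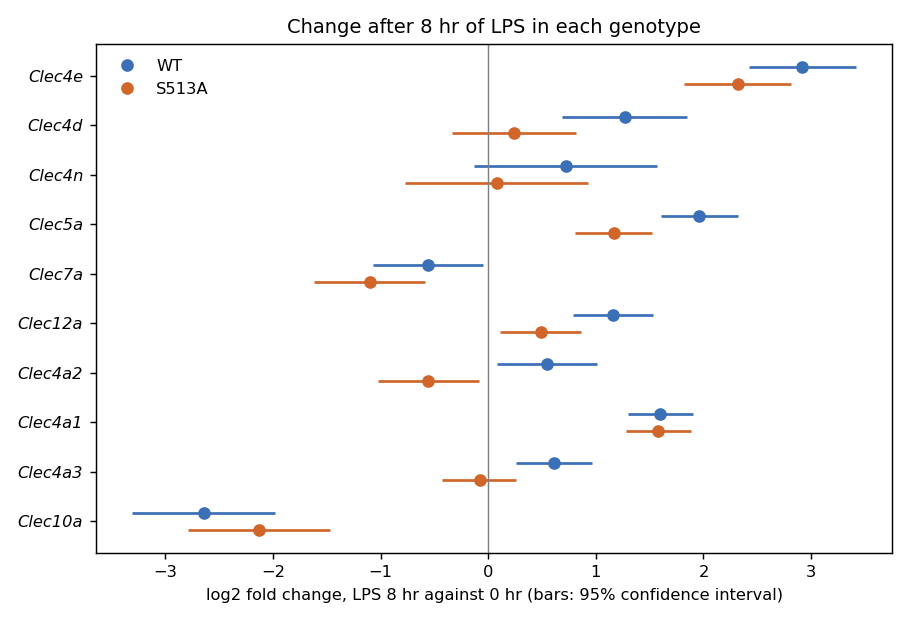
Log2 fold change of each receptor gene after 8 hr of LPS in WT (blue) and S513A (orange), each from 2 libraries against 2, with 95% confidence intervals from limma. The change is lower in S513A for 9 of 10 genes, by only 0.02 for Clec4a1, whose intervals nearly coincide. The intervals of Clec4a2 and of Clec5a do not meet, yet neither difference between genotypes passed over all genes tested (adjusted p = 0.193 for each, limma).

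These genotype values rested on libraries that differed within their groups. Replicate 1 was above replicate 2 for 9 of the 10 members in WT at 4 hr, with a median gap of 0.51, and below it for 9 in S513A at 4 hr, with a median of -0.20, and for 8 in S513A at 8 hr, with a median of -0.38. The SD of the same gap over all genes at or above 3 on the log2 scale was 0.40, 0.29 and 0.34 in these groups and 0.16 to 0.21 in the other 3. Without S513A 8 hr replicate 1, the interaction at 8 hr was -0.88 for Clec4a2 and -0.73 for Clec4d, and without S513A 8 hr replicate 2 it was -1.32 and -1.33, at which Clec4a2 passed (adjusted p = 0.0359, limma), as did 651 of 11885 genes, against 0 with all libraries. A single component carried 39.2% of the variance between replicates and set these 6 libraries apart. With it as a term, chosen after seeing the data, 7 members passed for the interaction at 8 hr and 6 for S513A against WT at 8 hr, as did 3389 and 2231 of all genes. The component was taken from the same values, so those p-values are too small.

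**Figure D5:**
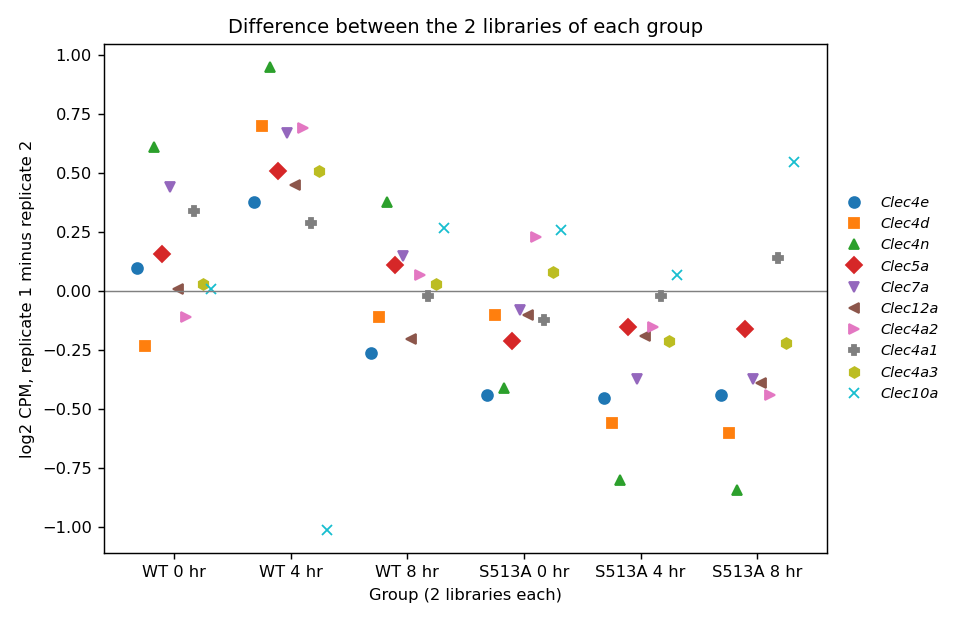
Log2 CPM of replicate 1 minus replicate 2 for the 10 receptor genes in each group of 2 libraries; each symbol is a gene and the grey line marks no difference. Most genes lie above the line in WT at 4 hr and below it in S513A at 4 and 8 hr, with Clec4n at 0.95, -0.80 and -0.84.

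The genes whose profile was most like each member were found over the 12 libraries, which share the LPS course, so high correlations were common. Pearson's r was 0.996 between Clec4e and Srxn1, 0.997 between Clec5a and Tnip3, 0.990 between Clec4d and Atp6v1e1 and 0.984 between Clec12a and Ifitm2. It was 0.993 between Clec4a1 and Il21r, 0.990 between Clec7a and Emb and 0.989 between Clec10a and Wwp1. The highest values were lower for the other members, with 0.969 between Clec4a3 and Pdlim4, 0.948 between Clec4a2 and Coprs and 0.884 between Clec4n and Hibadh. Within the family the closest pair was Clec4e and Clec4a1 at 0.94 and the most opposed was Clec4e and Clec10a at -0.98.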

How the data were processed

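RNA from thioglycollate-elicited PECs was sequenced in 12 libraries. Briefly, the authors mapped paired-end reads on mm10 with HISAT2 as unstranded and counted them with featureCounts 1.6.3. The deposited values are log2 CPM; the normalization program, the annotation, the filter and the strand setting of the counting are not given in the sources used here. Whole reads were recovered from every value, with a largest departure of 0.00103 read. Floors cover counting error only.

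The log2 values of 11885 genes, those at 1 CPM or more in 2 or more libraries, were fitted with limma 3.58.1 (R 4.3.3) as 6 group means, and variances were moderated by empirical Bayes with a trend in abundance. Tests were two-sided, with Benjamini-Hochberg adjustment over all genes tested, and called genes had an adjusted p at or under 0.05. The model was tested on simulated data. Positions came from the GENCODE annotation of GRCm38, the same assembly as mm10, in which 98.1% of rows matched, and promoters from RefSeq (GRCm38.p6). Alternatives were other filters, a further pseudocount of 1 CPM, median-ratio scaling, quantile normalization, replicate blocks, a prior without a trend, only the libraries compared, voom weights, each library left out and, chosen after seeing the data, a component shared by replicates.

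The members, lists and tests were chosen with earlier results of these data known. All 10 members are described; from the lists of signalling partners, other lectins and cell markers, the 3 called genes of largest change per comparison were to be named, for marker lists as counts or sums, and others are said to be chosen after their values were seen. A gene that this rule would name is not reported here. The gene most like each member was that with the highest Pearson's r outside the family.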

Additional observations from a re-analysis of the deposited data

Results flagged for a closer look

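The LPS change of Clec4a2 at 8 hr was picked out because the genotypes moved in opposite directions. Both WT libraries at 8 hr lay above both at 0 hr, and both S513A libraries at 8 hr lay below both at 0 hr. The difference between the genotypes in this change was -1.10 on the log2 scale, with a 95% confidence interval of -1.76 to -0.45 and an adjusted p of 0.193 in limma, so it did not pass the threshold over all genes tested. With each library left out in turn it ranged from -1.32 to -0.88.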

How the results depend on the processing

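For the 3 LPS comparisons over both genotypes, each call of a member kept its direction and its side of the threshold under every alternative run, except Clec4d at 4 hr under quantile normalization. The counts of members called stayed within 1.5 times elsewhere, save for the following. With the component shared by replicates as a term, 4 members were higher and 2 lower at 8 against 4 hr, where 5106 of 11885 genes were called in either direction. Between genotypes 4, 1 and 6 members then passed at 0, 4 and 8 hr, 1 over all times and 7 in the interaction at 8 hr. In the same order, 1569, 1058, 2231, 288 and 3389 of 11885 genes passed. With only the libraries compared, 4 members passed between genotypes at 0 hr, as did 693 of 11885 genes. Leaving out each library in turn gave 1 to 2 members lower at 8 against 4 hr, 5 to 9 called at 4 hr in S513A and 0 to 1 in the interaction at 8 hr. Same-numbered libraries of different groups had correlations of their deviations from -0.41 to 0.42, and 5 of 15 pairs of groups passed 0.1. Between times within S513A the correlations were 0.15, 0.09 and 0.42, and within WT they were -0.03, 0.08 and -0.1. These values do not settle whether same-numbered libraries of a genotype belong together. With the replicate block, 5 members were higher and 3 lower at 4 hr, and 5 and 2 at 8 hr, where 6462 and 5259 of 11885 genes were called in either direction. No genotype comparison called a member with this block. Within S513A, Clec4d at 4 hr (adjusted p = 0.0533) and Clec12a at 8 hr (adjusted p = 0.0531, both limma) no longer passed.

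Signs turned only among differences that had not passed. Under quantile normalization these were Clec4d (0.08), Clec7a (0.04) and Clec12a (0.05) at 8 against 4 hr, and Clec4a1 (0.03) in the interaction at 8 hr, which was 0.01 under median-ratio scaling. With each library left out, the ranges at 8 against 4 hr were -0.24 to 0.11 for Clec4d, -0.24 to 0.09 for Clec7a and -0.16 to 0.07 for Clec12a. They were -0.29 to 0.19 for Clec4n at 4 hr and -0.11 to 0.10 for Clec4a2 at 8 hr against 0 hr. For S513A against WT over all times they were -0.23 to 0.09 for Clec4n, -0.18 to 0.05 for Clec7a, -0.15 to 0.00 for Clec12a, -0.09 to 0.02 for Clec4a1, -0.08 to 0.10 for Clec4a3 and -0.22 to 0.11 for Clec10a. The cause of these changes was not tested. With 2 libraries a group, an interaction on the log2 scale had a standard error from 0.19 for Clec4a1 to 0.54 for Clec4n, which limits what the genotype tests could call.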
